A study of Mus musculus with 3 samples.

Results

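Lysosomal cathepsins, the lysosome-associated membrane proteins and the transcription factor Tfeb were described across 3 lines of C2C12 cells, a mouse myoblast line. The members were 9 genes, Ctsl, Ctsb, Ctsd, Ctsz, Ctsk, Ctss, Lamp1, Lamp2 and Tfeb. Every probe set whose only gene symbol in the platform annotation is 1 of these was taken, which gave 19 of the 34958 probe sets with a single symbol. The lines carried a short hairpin RNA (shRNA) that targets FoxO1, FoxO3 or FoxO4, were kept in DMEM with puromycin, and came from colonies picked for low levels of the intended FoxO. Hairpin and colony therefore cannot be told apart. Total RNA of each line was read on 1 Affymetrix array, so there is no replicate, no test and no error for any difference, and every count below is by size alone. A control RNAi enters through the authors' deposited log2 ratio of the FoxO1-labelled array to it.

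Lysosomes break down proteins that arrive by endocytosis or autophagy. Cathepsins are the proteases of their lumen: B, K, L, S and Z are cysteine proteases and D is an aspartic protease. The Lamp proteins are heavily glycosylated proteins that line the inside of the lysosomal membrane. Tfeb is a transcription factor that switches on many lysosomal genes through an E-box with the letters CACGTG. In muscle, FoxO factors are known to switch on genes of autophagy and lysosomal proteolysis during atrophy, Ctsl among them.

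Promoters are shown for the members that hold this E-box, since they include genes that stood at opposite ends among the arrays. RefSeq promoter entries of build GRCm38.p6 were found for 8 of the 9 genes, with 3 entries for Tfeb. Over the 250 bases before the annotated start, CACGTG, which reads the same on both strands, was present in Ctsd, Lamp1 and Ctsl. Capitals mark it below, and each sequence runs 5′ to 3′ on the strand of its gene.
Ctsd, chr7:142387828-142388077, minus strand: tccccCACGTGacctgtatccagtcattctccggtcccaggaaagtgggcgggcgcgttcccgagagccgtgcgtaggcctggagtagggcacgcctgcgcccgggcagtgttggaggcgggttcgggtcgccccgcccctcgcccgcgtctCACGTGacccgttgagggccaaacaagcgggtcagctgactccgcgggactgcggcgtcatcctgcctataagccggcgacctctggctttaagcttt
Lamp1, chr8:13158911-13159160, plus strand: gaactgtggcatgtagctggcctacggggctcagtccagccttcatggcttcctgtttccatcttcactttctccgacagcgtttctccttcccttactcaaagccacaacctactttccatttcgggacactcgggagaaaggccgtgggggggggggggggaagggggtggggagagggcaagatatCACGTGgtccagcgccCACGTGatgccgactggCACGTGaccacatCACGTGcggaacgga
Ctsl, chr13:64370521-64370770, minus strand: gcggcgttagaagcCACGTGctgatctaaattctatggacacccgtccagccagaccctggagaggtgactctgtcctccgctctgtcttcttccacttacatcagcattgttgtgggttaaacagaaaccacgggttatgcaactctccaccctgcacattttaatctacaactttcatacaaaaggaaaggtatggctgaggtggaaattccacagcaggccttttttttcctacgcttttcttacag
Ctsd held 2 copies, which begin 245 and 98 bases before the start. Lamp1 held 4 copies, at 61, 45, 28 and 15 bases before it, and Ctsl held 1, at 236 bases. Among all 32851 promoter windows of this length, 6.02% held at least 1 copy, 0.429% at least 2 and 0.0213%, which is 7 windows, at least 4. GTAAACA, a core bound by FoxO factors, was searched on both strands and was in 0 of the 10 member entries, against 3.17% of all windows. These matches describe the letters of the windows only. The Ctsl window ends in a pyrimidine-rich stretch and cag, letters that can also end an intron. Whether it lies before the start of transcription was not examined.

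Signals are GCOS signal, a linear intensity in arbitrary units. For differences, each signal was raised to the 20th percentile of its array where it lay lower (81.2, 73.1 and 77.3 on the FoxO1-, FoxO3- and FoxO4-labelled arrays), and log2 was taken. Where both arrays were at this floor the difference was set to 0. Most probe sets of an array lie above a floor set this way, so a signal above it does not by itself show expression. The targeted genes did not all follow the labels. Foxo1 read 2778 on the FoxO1-labelled array at the brightest of its 4 probe sets, against 1209 in the control implied by signal and ratio. Foxo3 on the FoxO3-labelled array read 1573 at the brightest of its 3 probe sets, against 1570 in the implied control, and 82.0 at the dimmest, against 747. That dimmest Foxo3 probe set was also low on the FoxO1- and FoxO4-labelled arrays, at 174 and 96.4, and the brightest was lowest on the FoxO4-labelled array, at 386. The 2 brightest Foxo1 probe sets were lowest on the FoxO3-labelled array, at 563 and 439. Foxo4 read 763 and 80.4 at its 2 probe sets on the FoxO4-labelled array, against 87.6 and 1678 in the implied control. The lines are therefore called by their labels throughout. Of the 7 myoblast markers, all were above the floor on each array, and their summed signal was 60035, 84661 and 53582 on the FoxO1-, FoxO3- and FoxO4-labelled arrays. Vim made up most of each sum, at 45395, 64220 and 38707, and the markers had no common order. Myod1 read 960, 1155 and 235, and Myf5 1056, 1758 and 1398. Des, the muscle intermediate filament gene, read 2695, 1826 and 384, while Cdh15, a cadherin of myoblasts, read 4761, 10814 and 10638. The 3′ to 5′ signal ratio of Actb, which rises when RNA is partly degraded, was 6.31, 5.50 and 3.45 on the FoxO1-, FoxO3- and FoxO4-labelled arrays, and 2.56 in the implied control. For Gapdh it was 5.0, 5.90 and 2.23, and 2.68 in the implied control. The part of RNA quality in the differences below was not tested.

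The FoxO3-labelled array was the lowest of the 3 for most of these genes. It was lowest at 13 of the 19 member probe sets, which is 68.4%, against 29.9% of all probe sets with 1 symbol. These 13 covered Ctsb, Ctsd, Ctsz, Ctsk, Ctss, Lamp1 and Lamp2, and most were probe sets of Ctsb and Lamp2. Of the 3 Ctsz probe sets only 1417870_x_at was among them. The other Ctsz probe sets were lowest on the FoxO4-labelled array. The bright Ctsl probe set and Tfeb were highest on the FoxO3-labelled array. The FoxO4-labelled array was lowest at 3 member probe sets and the FoxO1-labelled array at 1, against 28.3% and 27.3% of all probe sets. Among the 14 member probe sets with a mean signal above the median of all probe sets, the FoxO3-labelled array was lowest at 11, against 34.2%. At 2 of the 19 probe sets the lowest values lay at the floor and have no order.

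**Figure D1:**
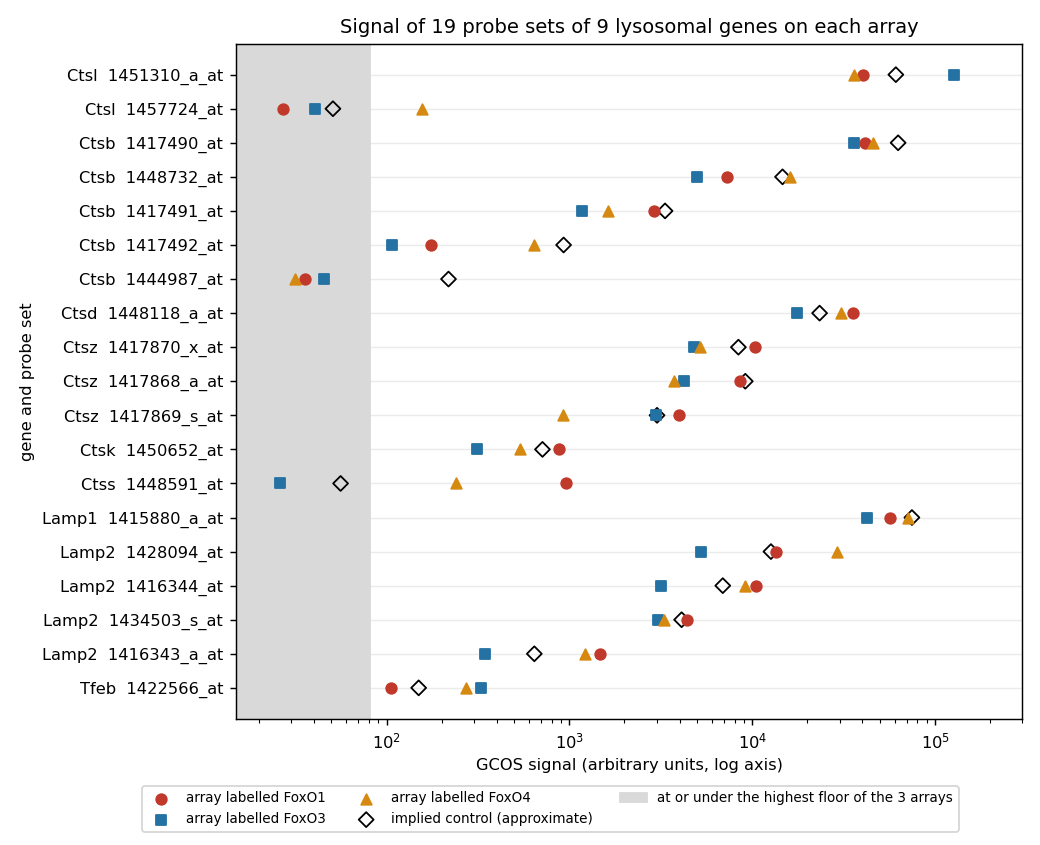
GCOS signal on a log axis (x) for each of the 19 member probe sets (y), with a filled point for each array and an open diamond for the approximate implied control. The blue squares of the FoxO3-labelled array are the leftmost filled points at 13 probe sets and the rightmost for the bright Ctsl probe set, at 126388.

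Ctsl encodes cathepsin L, a broad endopeptidase. Its bright probe set, 1451310_a_at, read 40208 on the FoxO1-labelled array, 126388 on the FoxO3-labelled array and 35973 on the FoxO4-labelled array. The FoxO3-labelled array thus stood apart, while the other arrays differed by a log2 value of 0.16. The log2 difference was -1.65 for FoxO1 minus FoxO3 and 1.81 for FoxO3 minus FoxO4, or 3.14-fold and 3.51-fold. The implied control read 60944, between the FoxO3-labelled array and the other arrays. The second Ctsl probe set, 1457724_at, was dim, with 27.3, 40.8 and 156 on the FoxO1-, FoxO3- and FoxO4-labelled arrays. Only the last of these lies above its floor, so this probe set gives no repeat of the high Ctsl signal on the FoxO3-labelled array.

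Ctsb encodes cathepsin B, which cleaves inside proteins and also trims dipeptides from their ends. Its 5 probe sets differed among themselves. The probe set with the highest Ctsb signal, 1417490_at, read 41370, 35775 and 45800 on the FoxO1-, FoxO3- and FoxO4-labelled arrays, all within a log2 value of 0.36. For 1448732_at the signals were 7315, 5005 and 16135, and for 1417492_at 176, 108 and 642. At these 2 probe sets Ctsb was 3.22-fold and 5.97-fold lower on the FoxO3-labelled array than on the FoxO4-labelled array, with log2 differences of -1.69 and -2.58. For 1417491_at the order of the upper arrays turned, with 2903, 1175 and 1624. The fifth Ctsb probe set, 1444987_at, was under the floor on all 3 arrays, at 36.0, 45.8 and 31.4. The FoxO3-labelled array was the lowest at each of the 4 Ctsb probe sets above the floor, although the size ran from -0.36 to -2.58 against the FoxO4-labelled array. For FoxO1 minus FoxO3 only 1417491_at reached 2-fold, at 1.31. The differences at 1417490_at, 1448732_at and 1417492_at were 0.21, 0.55 and 0.71.

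Ctsd encodes cathepsin D. Its single probe set read 35369 on the FoxO1-labelled array, 17547 on the FoxO3-labelled array and 30359 on the FoxO4-labelled array. The difference of FoxO1 minus FoxO3 was 1.01, at the edge of the 2-fold threshold, and that of FoxO3 minus FoxO4 was -0.79.

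Ctsz encodes cathepsin Z, a carboxypeptidase. Ctsz was highest on the FoxO1-labelled array at all 3 of its probe sets. Probe set 1417870_x_at read 10337, 4828 and 5186, and 1417868_a_at read 8544, 4208 and 3723, on the FoxO1-, FoxO3- and FoxO4-labelled arrays. These 2 probe sets put the FoxO1-labelled array between 1.99-fold and 2.29-fold above the others. The third Ctsz probe set, 1417869_s_at, read 3977, 2980 and 923, so that here the FoxO4-labelled array stood apart, at -1.71 against the implied control. The identifiers of 1417869_s_at and 1417870_x_at carry Affymetrix codes for probes that can match other transcripts.

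Ctsk and Ctss encode cathepsin K, the collagen-degrading protease of osteoclasts, and cathepsin S, which trims the invariant chain in antigen-presenting cells. The genes are neighbours on chromosome 3. Ctsk read 877 on the FoxO1-labelled array, 313 on the FoxO3-labelled array and 535 on the FoxO4-labelled array. Ctss read 962, 26.0 and 239 on the same arrays. Both thus had the order FoxO1, FoxO4, FoxO3 from high to low. For Ctsk the difference of FoxO1 minus FoxO3 was 1.49. For Ctss the FoxO3-labelled array was under its floor of 73.1. Taken against that floor, the FoxO1-labelled array was 13.2-fold higher and the FoxO4-labelled array 3.27-fold higher. Ctss has 1 probe set, with a mean signal below the median of all probe sets, so these sizes are uncertain. Against the FoxO4-labelled array, Ctss on the FoxO1-labelled array was 2.01 higher on the log2 scale. The next protein-coding gene beside Ctsk, Arnt, differed little, with 658, 558 and 665. Hormad1, on the other side of Ctss, read 156, 73.1 and 179 after the floor. In bulk RNA, fewer cells of a type and less RNA per cell cannot be told apart. The summed signal of the 10 macrophage markers was 5440, 3023 and 5303 on the FoxO1-, FoxO3- and FoxO4-labelled arrays, with 9, 6 and 8 of them above the floor, where a marker counts as at the floor only if all its probe sets are. Ptprc, the pan-leukocyte marker, was at the floor on the FoxO3- and FoxO4-labelled arrays and near it, at 102, on the FoxO1-labelled array. Itgam, an integrin of macrophages, read 742 on the FoxO1-labelled array and was at the floor on the others. Adgre1, the F4/80 antigen of macrophages, read 600, 981 and 893, and Fcgr1, an antibody receptor, 297, 668 and 291. These 2 markers were highest on the FoxO3-labelled array, where Ctss was lowest. Fcer1g was also highest there, near the floor at 81.2, 112 and 92.5. The remaining macrophage markers were lowest on the FoxO3-labelled array, as Ctss was. Csf1r read 923, 570 and 859, Cd14 1148, 380 and 1668, and Cd53 259, 147 and 296. After the floor, Tyrobp read 462, 73.1 and 242, and Aif1 611, 73.1 and 627. The 8 osteoclast markers summed to 3408, 3321 and 2949, with 6, 5 and 8 above the floor, and had no common order. Calcr was at or under the floor on the FoxO1- and FoxO3-labelled arrays. Dcstamp, Mmp9 and Nfatc1 were highest on the FoxO3-labelled array. After the floor they read 81.2, 561 and 341, 122, 381 and 156, and 637, 828 and 111. Acp5, Ocstamp and Itgb3 were lowest there, as Ctsk was, at 202, 73.1 and 162, 411, 73.1 and 463, and 516, 302 and 397. Tnfrsf11a read 778, 389 and 220. The 7 fibroblast markers, all above the floor, summed to 126510, 58744 and 102886. Col1a1, Col3a1 and Postn made up most of each sum, and Postn read 24592, 4823 and 28005. Dcn was lowest on the FoxO1-labelled array, at 206, 787 and 800, and Thy1 on the FoxO4-labelled array, at 499, 320 and 225. The remaining fibroblast markers were lowest on the FoxO3-labelled array. The part of these cell types in the Ctss and Ctsk values was not tested.

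Lamp1 and Lamp2 encode the major glycoproteins of the lysosomal membrane, and Lamp2 also gives the receptor of chaperone-mediated autophagy. Lamp1 read 56543, 42238 and 70835 on the FoxO1-, FoxO3- and FoxO4-labelled arrays, and no pair reached 2-fold. Lamp2 was lowest on the FoxO3-labelled array at all 4 of its probe sets. Probe set 1428094_at read 13553, 5244 and 28931, 1416344_at read 10453, 3175 and 9094, and 1416343_a_at read 1477, 346 and 1219. At these 3 probe sets Lamp2 was lower on the FoxO3-labelled array than on either other array by a log2 value between 1.37 and 2.46. The fourth, 1434503_s_at, read 4402, 3050 and 3275, a difference of 0.53 for FoxO1 minus FoxO3. Between the FoxO1- and FoxO4-labelled arrays the Lamp2 probe sets did not go 1 way, with differences from -1.09 to 0.43. Which Lamp2 isoform each probe set reads was not analysed here.

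Tfeb had 1 probe set, which was dim. It read 106 on the FoxO1-labelled array, 330 on the FoxO3-labelled array and 271 on the FoxO4-labelled array. The FoxO1-labelled array was thus the low one, near its floor of 81.2, with differences of -1.64 for FoxO1 minus FoxO3 and -1.36 for FoxO1 minus FoxO4. Its relatives Tfe3 and Mitf read 3649, 4734 and 5613, and 661, 367 and 265, on the FoxO1-, FoxO3- and FoxO4-labelled arrays, so the 3 factors had no common order.

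**Figure D2:**
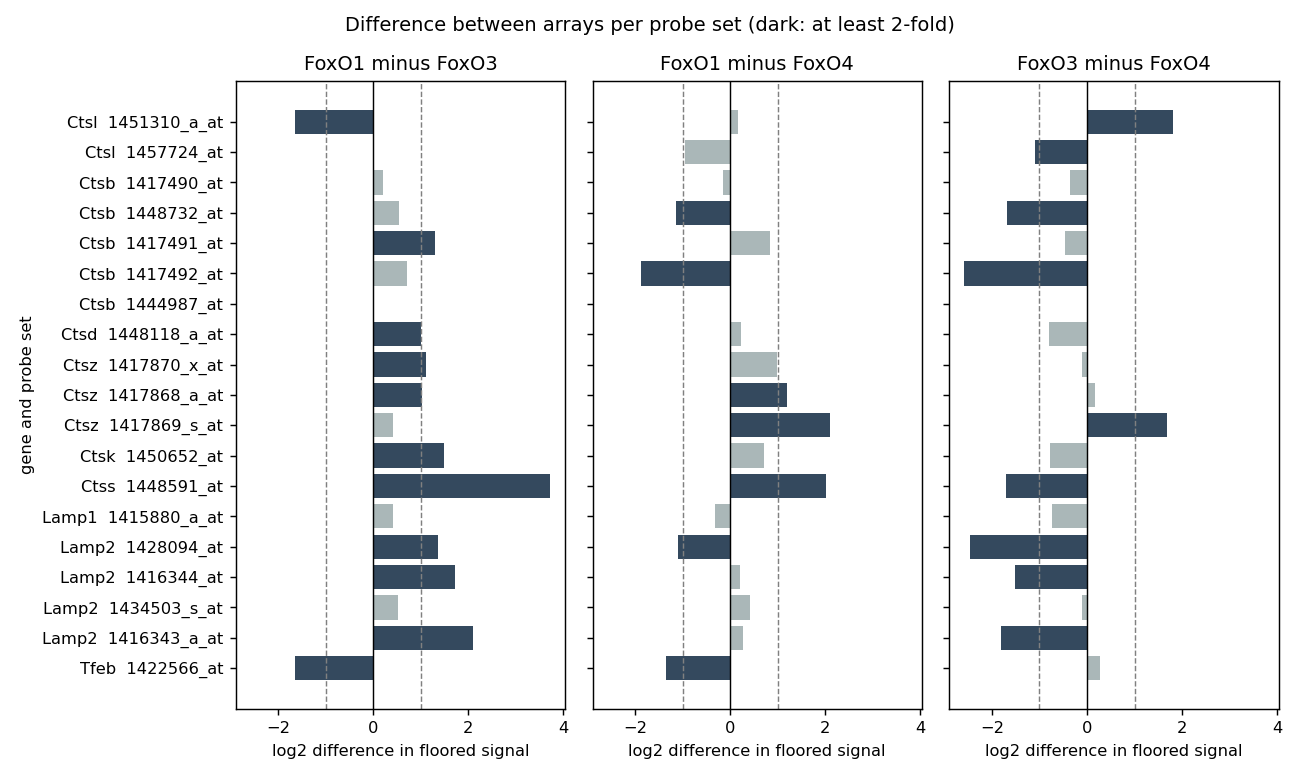
Log2 difference in floored signal (x) for each member probe set (y) in the 3 pairs of arrays. Dark bars are at least 2-fold, which holds for 11 probe sets in FoxO1 minus FoxO3, 7 in FoxO1 minus FoxO4 and 9 in FoxO3 minus FoxO4, and dashed lines mark 2-fold.

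By pair, the FoxO1-labelled array was at least 2-fold higher than the FoxO3-labelled array at 9 of 19 member probe sets (47.4%) and lower at 2 (10.5%). Over all probe sets with 1 symbol the shares were 22.2% and 19.5%. The member median was 0.71, against 0 over all probe sets. With each array centred on its median, which moves this pair by 0.26, the members gave 6 and 2, against 17.9% and 24.2% of all probe sets. For FoxO1 minus FoxO4, 3 member probe sets were higher and 4 lower, beside 21.4% and 19.2% of all, with a member median of 0.20. These shares, 15.8% and 21.1%, lie near those of all probe sets. Centring, a shift of 0.21, gave 2 and 5, beside 18.0% and 23.2% of all. For FoxO3 minus FoxO4, 2 were higher and 7 lower (10.5% and 36.8%), beside 19.7% and 20.7% of all, with a member median of -0.75 against 0. Among the 14 members with a mean signal above the median of all probe sets, the first pair gave 8 higher and 1 lower, against 17.1% and 16.2% of the 19231 such probe sets. The last pair gave 2 higher and 4 lower, against 16.2% and 16.1%. The 3 pairs share arrays and are not independent of each other.

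The only repeat of a measurement on these arrays comes from genes read by several probe sets. Among 1490 genes with exactly 2 probe sets in the upper 25% of signal, the difference between the 2 had an SD of 0.91 for FoxO1 minus FoxO3, 0.997 for FoxO1 minus FoxO4 and 1.05 for FoxO3 minus FoxO4. Over all 4694 genes with 2 probe sets the SD was between 1.87 and 1.96. This SD is that of a difference between 2 probe sets on the same arrays. It is not the spread of 1 probe set and does not measure the error between arrays. A single member probe set near 2-fold, such as that of Ctsd, has no repeat here. The repeated low signal on the FoxO3-labelled array at the Lamp2 and Ctsb probe sets is a description of 1 RNA sample.

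Against the control RNAi, most members of the FoxO1-labelled array were within 2-fold. In the authors' deposited table, 2 of the 19 ratios were at least 2-fold higher and 3 lower, beside 22.0% and 20.6% of all probe sets, with a median of -0.10 against 0. Ctss had the highest deposited ratio, 4.10, without a change call, and its implied control signal of 56.1 lies under the floor of 88.8, so its size is uncertain. Lamp2 at 1416343_a_at had a deposited ratio of 1.20. The lower ratios in the authors' deposited table were all of Ctsb, at -1.0, -2.40 and -2.60, the last from a probe set under the floor on the array itself. The authors' deposited table called Ctsd increased, at 0.60, and the bright Ctsb probe set decreased, at -0.60. It called the other 17 member probe sets unchanged, as it did 93.1% of all.

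The other arrays were set beside the implied control, which is derived from the FoxO1-labelled array and its ratio and is approximate. On the FoxO3-labelled array, 2 member probe sets were at least 2-fold higher and 8 lower, beside 19.4% and 20.1% of all, with a median of -0.82 against 0. The higher ones were Ctsl at 1.05 and Tfeb at 1.14. The lower ones were 4 of Ctsb, from -1.51 to -3.11, 2 of Lamp2 at -1.12 and -1.27, Ctsk at -1.19 and Ctsz at -1.12. Of these, -1.58 comes from the Ctsb probe set that was under the floor on the array itself. On the FoxO4-labelled array, 2 were higher and 4 lower, beside 20.2% and 19.9% of all. These were Ctss at 1.43 and Lamp2 at 1.19, and on the lower side Ctsz at -1.30 and -1.71 and Ctsb at -1.04 and -1.50. The Ctss value was taken against the floor, since its implied control lies under it, and its size is uncertain. The value of -1.50 comes from the Ctsb probe set under the floor. These comparisons share 1 control, so a high or low control signal moves all of them together.

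**Figure D3:**
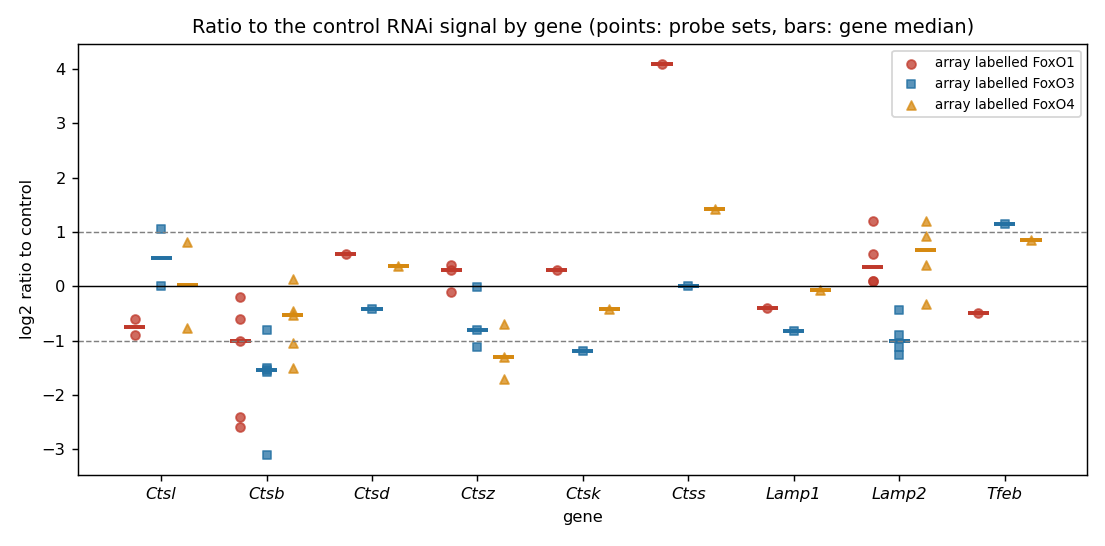
Log2 ratio to the control (y) for each member gene (x) on the 3 arrays, with a point per probe set and a bar at the gene median. The ratio of the FoxO1-labelled array is the authors' and those of the other arrays use the implied control. All 4 Lamp2 points of the FoxO3-labelled array lie below 0, and Ctss on the FoxO1-labelled array stands at 4.10.

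Other genes of the lysosome were counted by gene, with the median over probe sets as the gene's value. Over 7 lists, 126 genes were measured. For FoxO1 minus FoxO3, 35 were at least 2-fold higher (27.8%) and 15 lower (11.9%), beside 21.3% and 17.4% of all 18194 genes. For FoxO1 minus FoxO4 the counts were 24 and 18 (19.05% and 14.3%), beside 20.4% and 16.9%. For FoxO3 minus FoxO4 they were 11 and 28 (8.73% and 22.2%), beside 17.9% and 18.6%. Against the control, the ratios in the authors' deposited table gave 19 higher and 7 lower genes for the FoxO1-labelled array (15.1% and 5.56%), beside 18.8% and 17.1%.

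Lysosomal hydrolases and their activators had the highest median of the 7 lists for FoxO1 minus FoxO3, 0.83 against 0.03 over all genes. Of them 13 of 32 were higher and 3 lower, beside 21.3% and 17.4% of all genes. Naglu, an enzyme of heparan sulfate breakdown, read 3184, 363 and 1282 on the FoxO1-, FoxO3- and FoxO4-labelled arrays, and Hexa, a subunit of beta-hexosaminidase, read 20652, 4259 and 6056. Among the 16 other cathepsins, 7 were higher and 3 lower in that pair, with a median of 0.77. Many of these genes were dim, so this count rests in part on values at the floor. Ctsj, Ctsq and Cts6, among the higher ones, were at the floor value of 73.1 on the FoxO3-labelled array. The 3 lower ones, Ctsg, Ctsm and Cts7, were at the floor value of 81.2 on the FoxO1-labelled array. Ctsh, an aminopeptidase, read 1136, 242 and 331, and Ctsw, a cathepsin of cytotoxic lymphocytes, 1029, 146 and 1358. Naglu, Hexa, Ctsh and Ctsw were each lowest on the FoxO3-labelled array, as Ctsk and Lamp2 were.

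Cathepsin inhibitors and processing enzymes did not go 1 way, with 2 of 7 higher, 2 lower and a median of -0.29 for FoxO1 minus FoxO3. Cst3, the secreted inhibitor cystatin C, read 41806, 6347 and 19832, and Cst6, another cystatin, 1093, 3442 and 961. The 17 other lysosomal membrane proteins gave 3 higher and 3 lower in the same pair, with a median of 0.46. Over all genes the shares in this pair were 21.3% higher and 17.4% lower. Cd68, a Lamp family glycoprotein abundant in macrophages, was highest on the FoxO3-labelled array at 193, 1593 and 631, and Mcoln1, a lysosomal calcium channel, read 1439, 2514 and 5456.

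The vacuolar proton pump, which acidifies the lysosome, had medians nearer 0, at 0.28 for FoxO1 minus FoxO3 and -0.02 for FoxO3 minus FoxO4, with 3 of 18 genes higher and 1 lower in the first pair. Atp6v1a, its catalytic subunit, read 4383, 612 and 3666, and Atp6v0e2 read 986, 621 and 168. The relatives and regulators of Tfeb gave 3 of 18 higher and 1 lower for FoxO1 minus FoxO3, with a median of 0.26. Mtor, the kinase that keeps Tfeb in the cytosol, read 637, 1051 and 192, and Akt1, a kinase that inhibits FoxO factors, 402, 1146 and 1668. Sorting genes gave 4 of 18 higher and 2 lower for FoxO1 minus FoxO3, with a median of 0.20. Beside the counts of these lists, 21.3% of all genes were higher and 17.4% lower in that pair. Sort1, a sorting receptor for lysosomal enzymes, read 1249, 139 and 641, and Vps39, a subunit of the tethering complex for lysosome fusion, 711, 138 and 410.

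By the median signal over its probe sets, Ctsk had the widest range over the arrays among member genes with a signal above the median, 1.49. This pick depends on that median. Besides 3 single Lamp2 probe sets, 1417869_s_at of Ctsz, 1451310_a_at of Ctsl and 1448732_at of Ctsb ranged more widely, at 2.11, 1.81 and 1.69. By the median of its probe set differences, Lamp2 was at 1.54 for FoxO1 minus FoxO3. Ctsb was at 1.31 for FoxO1 minus FoxO3 by the median signal and at 0.55 by the median of its probe set differences. For FoxO1 minus FoxO4 the Ctsb values were 0.84 and -0.15, so their sign depends on this choice. Of the 129 other genes in these lists and the FoxO genes, Atp6ap2, Glb1 and Lipa had the nearest profiles over the 3 arrays. Their Euclidean distances from Ctsk, on log2 signals centred on the mean of the 3, were 0.0978, 0.104 and 0.106. Glb1, the lysosomal beta-galactosidase, read 6125, 2125 and 4011, and Lipa, the lysosomal acid lipase, 3235, 1275 and 2135. A profile of 3 points is a weak measure of likeness.

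**Figure D4:**
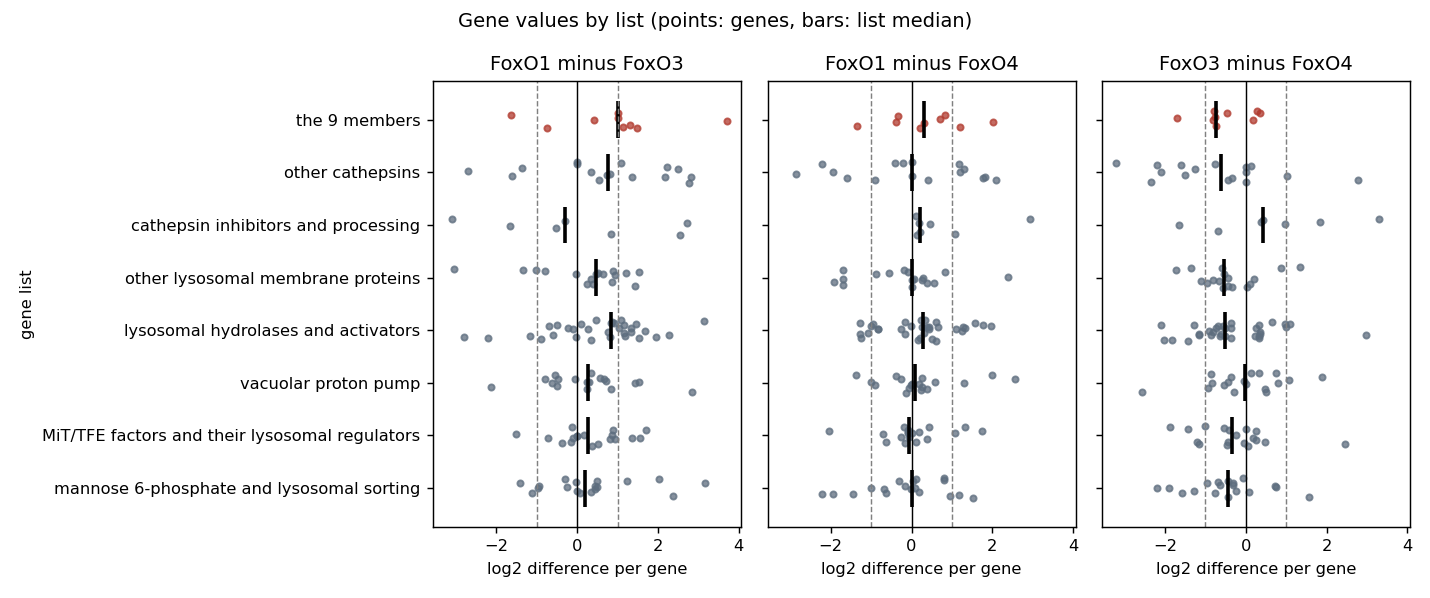
Log2 difference per gene (x) in the 3 pairs of arrays for the 9 members and 7 lists of lysosomal genes (y), with a point per gene and a bar at the list median. The hydrolases have a median of 0.83 in FoxO1 minus FoxO3 and -0.51 in FoxO3 minus FoxO4, on the same sides of 0 as the members.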

How the data were processed

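Each of 3 C2C12 lines was measured on 1 Affymetrix array, and array number limits the precision. The deposited signal table holds intensity per probe set (GCOS signal, GCOS being named in the submitters' processing notes), with a 2% trimmed mean of 1000 on each array. Its version and settings were not given in the sources used here. The second deposited table holds a change call and, per the file headers, log2 ratios of FoxO RNAi over control RNAi, rounded by the authors to 0.1. Its FoxO1 ratio followed the array's own signal minus the mean of the others (r = 0.58 across probe sets). Those of FoxO3 and FoxO4 gave -0.01 and -0.00, so these 4 columns were not used. The implied control is the FoxO1 signal divided by 2 to the power of its ratio.

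Of 45101 probe sets, 34958 have 1 symbol, 932 several and 9211 none, and 34754 were matched by Entrez identifier to RefSeq (GRCm38.p6). Members and lists were chosen with earlier results of these data known. The text names all members, the FoxO genes, the 2 genes of each list with the widest range over arrays among those with above-median signal, and the 3 genes nearest to the widest member. Marker genes, Tfe3, Mitf and the neighbours of Ctsk and Ctss were named after their values were seen. The threshold was 2-fold, and no test was possible. Alternatives changed the floor, scaling, probe sets, signal filter and threshold. The calculation was tested on simulated data with large planted changes in bright probe sets and little noise. That checks the code and not calls near 2-fold or at dim probe sets. Calculations used pandas 2.3.3 and numpy 2.4.6 under Python 3.11.15, with matplotlib 3.10.9 for plots and scipy 1.17.1 for trimmed means.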

Additional observations from a re-analysis of the deposited data

Results flagged for a closer look

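Lamp2 at probe set 1428094_at stood at least 2-fold on opposite sides of the implied control in different lines. It lay at 1.19 on the FoxO4-labelled array and at -1.27 on the FoxO3-labelled array, 2.46 apart on the log2 scale. With 1 array a line the difference was not tested. The other Lamp2 probe sets lay closer together.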

How the results depend on the processing

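Of 93 counts recomputed under an alternative, 63 stayed within 1.5 times the reported value and 30 did not. Several alternatives leave fewer probe sets to count. With the 11 plain probe sets, FoxO1 minus FoxO3 gave 5 higher and 1 lower, FoxO1 minus FoxO4 gave 1 higher and FoxO3 minus FoxO4 gave 0 higher. Against the control there was 1 higher for FoxO1 and 1 for FoxO3, and 2 lower for FoxO4, and FoxO3 was lowest at 8. With the brightest probe set of each of the 9 genes, FoxO1 minus FoxO3 gave 5 higher, FoxO1 minus FoxO4 gave 1 higher and 2 lower, and FoxO3 minus FoxO4 gave 1 higher and 2 lower. Against the control there were 1 higher and 0 lower for FoxO1, 2 lower for FoxO3 and 0 lower for FoxO4, and FoxO3 was lowest at 7. With the 14 probe sets above the median signal, FoxO1 minus FoxO3 gave 1 lower, FoxO1 minus FoxO4 gave 2 lower and FoxO3 minus FoxO4 gave 4 lower. Against the control FoxO1 gave 1 higher and 1 lower, FoxO3 gave 1 higher and FoxO4 gave 1 higher. At 1.5-fold, FoxO1 minus FoxO4 gave 6 higher, FoxO1 against the control 4 higher and 6 lower, and FoxO4 against the control 5 higher. Centring the arrays left 1 higher for FoxO3 against the control. Of 303 gene values, 8 moved by more than the SD between probe sets of a gene and 0 reported values of 2-fold or more turned their sign. Many of the 303 could not move. A gene with 1 probe set keeps its value under another choice of probe sets, and centring leaves the deposited ratios unchanged. Ctss for FoxO1 minus FoxO3 was 4.70 with a floor at the 10th percentile and 5.21 with none, and with none Ctss for FoxO3 minus FoxO4 was -3.20, against -1.71, and for FoxO3 minus the implied control -1.11, against 0. Ctsl for FoxO3 minus FoxO4, 0.36 by the median of its 2 probe sets, was 1.81 with its brightest probe set or the signal filter and -1.09 with plain probe sets. Lamp2 for FoxO1 minus FoxO4, 0.24 by the median of its probe sets, was -1.09 with its brightest. Comparisons with the implied control, the count of lowest arrays and their alternatives were added after seeing the data. Quantile normalization was not run for comparisons with the control, which has no array here. No paired analysis was possible because each line has 1 array.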
